A study of Mus musculus with 31 samples.

Results

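The receptors that signal through the common gamma chain were described in 31 mouse RNA-seq libraries (strain C57BL/6). The family was taken as 8 genes matched by symbol among the 48881 gene rows of the deposited count tables: Il2rg, Il2rb, Il2ra, Il15ra, Il7r, Il9r, Il4ra and Il21r. All 8 passed the low-count filter in every fit. The thymocyte cultures were grown from DN1 or DN3 cells, early CD4-CD8- stages of T cell development, on OP9-DL1 stroma, a feeder line that presents a Notch ligand, and the medium held stem cell factor (SCF), IL-7 and IL-2. Every culture carried R26-CreERT2, a Cre enzyme switched on by tamoxifen, and the R26-stop-tdTomato reporter of its activity. Floxed cultures also carried E2Af/fHEBf/f, conditional alleles of the E proteins E2A (Tcf3) and HEB (Tcf12), transcription factors of early T cells, and control cultures did not. Tamoxifen (4-OHT) was added on day 4. Libraries were made on day 4, before it acted, and from tdTomato-positive sorted cells on days 5 and 7, with 2 libraries in each of the 12 culture groups (replicates a and b floxed, c and d control). Group 2 innate lymphoid cells (ILC2), tissue lymphocytes of type 2 immunity, were isolated without culture from dKO thymus (plck-Cre; E2Af/fHEBf/f, 2 libraries), dKO lung (same genotype, 2 libraries) and Id1 lung (plck-Id1, 3 libraries). The lck proximal promoter drives these transgenes in T lineage cells, and Id1 is an inhibitor of E proteins. For 2 of the Id1 lung libraries the genotype field reads plck-Id2 or plck-Id3, and their titles, which read Id1, were followed. The sources used here do not give ages or sort markers.

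IL-2, IL-4, IL-7, IL-9, IL-15 and IL-21 are sensed by receptors that share the common gamma chain, the product of Il2rg. IL-2 and IL-15 also share the beta chain (Il2rb) and differ in one more chain, Il2ra (CD25) or Il15ra, while each other cytokine has a private alpha chain. Ligand binding activates JAK1 on the private or beta chain and JAK3 on the common gamma chain, and the kinases then phosphorylate STAT5, or STAT6 for IL-4 and STAT3 for IL-21. IL-7 is needed for early thymocytes and for ILC2, IL-9 supports ILC2 survival, and CD25 is the surface protein by which DN1 cells (without it) and DN3 cells (with it) are classically told apart.

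Counts totalled 3695520 to 13065400 per library. Tcf12 and Tcf3 RNA checked the labels: at day 7 Tcf12 was at 105 to 107 CPM in DN1 floxed libraries and 264 to 271 CPM in DN1 control libraries, and at 148 to 165 CPM in DN3 floxed libraries and 478 to 484 CPM in DN3 control libraries. Tcf3 was at 16.5 to 37.2 CPM in DN1 floxed and 78.9 to 89.8 CPM in DN1 control libraries, and at 14.7 to 32 CPM in DN3 floxed and 89.5 to 94.7 CPM in DN3 control libraries. In lung, Tcf12 was at 105 to 131 CPM in dKO and 167 to 232 CPM in Id1 ILC2, and Tcf3 at 2.93 to 3.07 CPM in dKO and 9.50 to 9.97 CPM in Id1 ILC2. The dKO thymic ILC2 had Tcf12 at 265 to 284 CPM and Tcf3 at 5.05 to 12.8 CPM, with no control ILC2 of thymus to set them against. Counts are per gene and can include exons outside a deletion. CPM values use TMM-scaled library sizes. Genotype and sex went together, with Xist at 528 to 1886 CPM in floxed and 4.24 to 68.6 CPM in control cultures, so the genotypes and the sexes cannot be told apart, and Il2rg is on the X chromosome. Unsorted day 4 libraries held stromal RNA: 10 stromal genes summed to 1201 to 5825 CPM on day 4 and to 42.5 to 166 CPM later. DN1 floxed replicate b of day 7 also held muscle RNA (8 genes, 8271 CPM in sum, against 66.8 CPM in replicate a). The dKO lung library 3 had 46.5% of its counts on 3 satellite-like genes, against 6.98% in the other dKO lung library. The labels do not say that replicates came from separate animals or cultures, so p-values set a difference against the spread between these libraries only. Genes were tested with edgeR's quasi-likelihood test, ± after a log2 change is its standard error, and a gene was called at a Benjamini-Hochberg adjusted p under 0.05 over all genes tested.

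The sequence upstream of the start site is shown for Il2ra, Il2rg, Il7r and Il9r, on which the results below turn, because E proteins bind E-box hexamers and STAT5 binds TTC and GAA with spacer bases between. Windows are the 250 bases before the RefSeq start (GRCm38.p6), given 5′ to 3′ on the gene's strand: chr2:11642542-11642791 (plus) for Il2ra, chrX:101268256-101268505 (minus) for Il2rg, chr15:9529877-9530126 (minus) for Il7r and chr11:32200280-32200529 (minus) for Il9r. Capitals mark any match to CAGCTG, to CAGGTG on either strand, or to TTCNNNGAA.
Il2ra: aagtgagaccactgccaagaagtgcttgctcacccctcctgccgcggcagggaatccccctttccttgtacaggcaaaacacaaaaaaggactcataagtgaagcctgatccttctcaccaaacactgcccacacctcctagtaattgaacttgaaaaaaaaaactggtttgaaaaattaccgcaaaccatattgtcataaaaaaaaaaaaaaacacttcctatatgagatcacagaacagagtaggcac
Il2rg: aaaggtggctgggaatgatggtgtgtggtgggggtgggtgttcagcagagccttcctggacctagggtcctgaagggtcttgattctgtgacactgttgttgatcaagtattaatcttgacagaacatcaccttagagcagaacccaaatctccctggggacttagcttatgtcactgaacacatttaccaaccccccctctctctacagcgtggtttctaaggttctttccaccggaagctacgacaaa
Il7r: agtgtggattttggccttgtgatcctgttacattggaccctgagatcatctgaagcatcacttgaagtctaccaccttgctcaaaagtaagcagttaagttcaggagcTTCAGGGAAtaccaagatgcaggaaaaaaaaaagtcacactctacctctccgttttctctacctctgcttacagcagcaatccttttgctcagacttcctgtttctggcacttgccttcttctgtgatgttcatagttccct
Il9r: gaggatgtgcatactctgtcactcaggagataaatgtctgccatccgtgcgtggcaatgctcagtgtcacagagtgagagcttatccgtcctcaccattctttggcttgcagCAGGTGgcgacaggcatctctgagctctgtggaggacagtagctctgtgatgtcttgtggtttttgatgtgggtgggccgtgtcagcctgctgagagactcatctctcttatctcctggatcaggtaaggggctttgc
Over the 8 windows that RefSeq gave for 7 of the genes (Il15ra has a pair of starts, and Il2rb was not matched), CAGCTG was in 2 (Il4ra and the first Il15ra window), CAGGTG in 2 (Il9r and the second Il15ra window) and TTCNNNGAA in 1 (Il7r). Among 32851 windows of the same length, 13% held CAGCTG, 17.2% CAGGTG and 7.02% TTCNNNGAA. The Il2ra, Il2rg and Il21r windows held none of the motifs. A match is a description of these letters and not a measured binding site.

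Per kb of exon, so that genes can be compared, Il2ra was the most abundant family RNA in every culture group and in thymic ILC2, with means of 58.4 to 306 CPM per kb. Il7r was the most abundant in lung ILC2, at a mean of 226 CPM per kb in dKO and 364 CPM per kb in Id1 libraries. In DN3 floxed cells on day 7 the level per kb ran from Il2ra (306) through Il2rg (106) and Il2rb (104), which overlapped, to Il21r (14.6), Il4ra (12.4), Il9r (4.38), Il7r (2.58) and Il15ra (2.03). All 3 chains of the IL-2 receptor therefore stood above the private chains of the other cytokines there. In DN1 floxed cells of the same day the order was Il2ra (196 CPM per kb), Il2rg (102), Il2rb (31.9), Il4ra (12.1), Il7r (11.3), Il9r (4.65), Il21r (3.92) and Il15ra (0.821). Set against the shared chain in the same library, Il2rb per kb was 1.0 times Il2rg in DN3 floxed and 0.708 times in DN3 control cells on day 7, while Il7r per kb was 0.0242 times Il2rg in DN3 floxed and 0.165 times in DN3 control cells. In ILC2 the second ratio was above 1: 2.31 in dKO thymus, 6.34 in dKO lung and 3.08 in Id1 lung. Il7r and Il2rg differ in GC content, at 40.5% and 49%. Between thymic ILC2 and DN1 floxed cells of day 7, the median log2 change was 1.26 for genes of like GC to Il7r. For genes of like GC to Il2rg it was -0.042. The part of GC in these ratios was not tested.

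**Figure D1:**
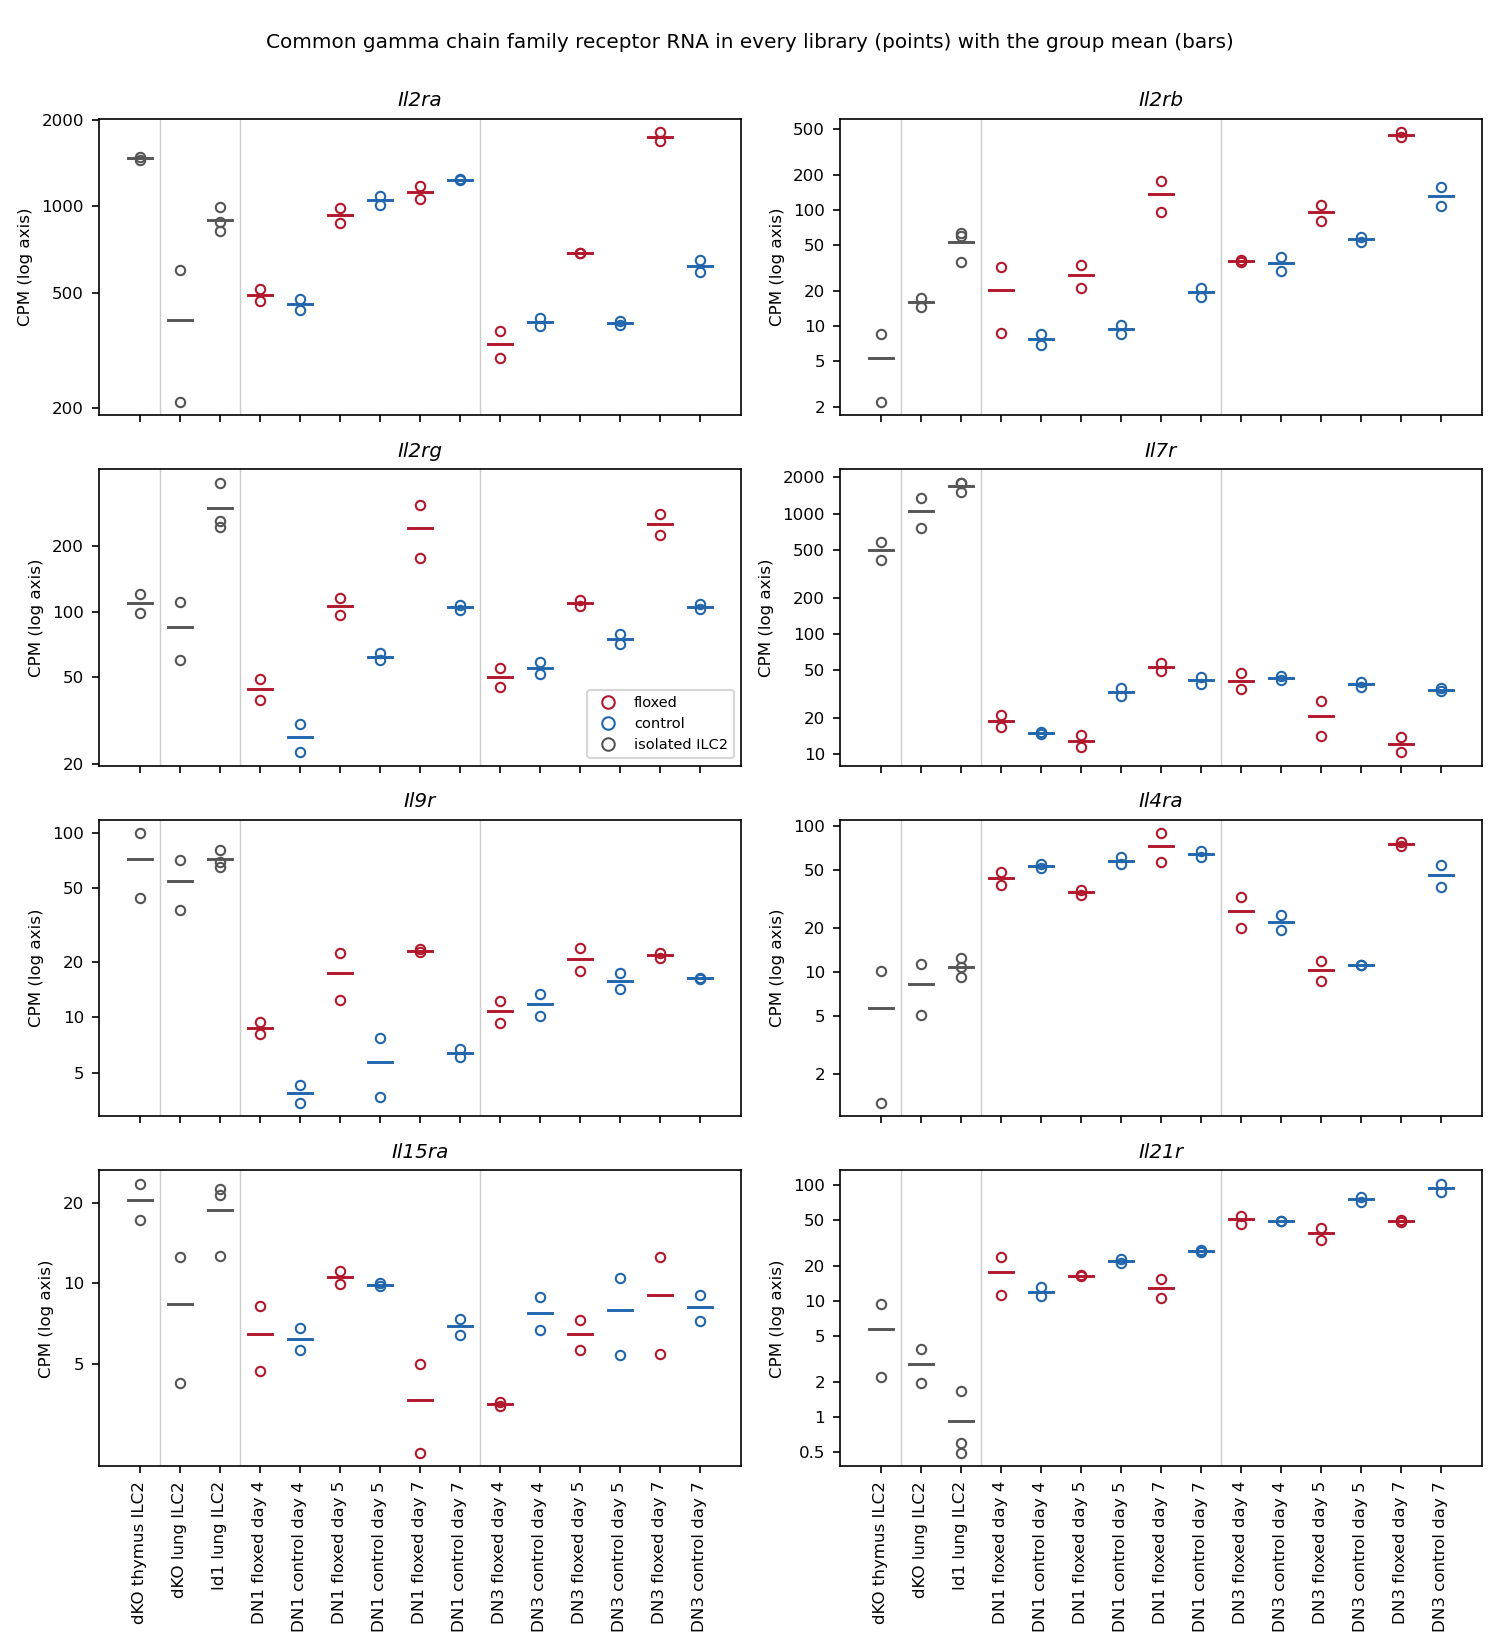
CPM of each receptor gene (log axis) in every library by group, with floxed cultures in red, control cultures in blue, isolated ILC2 in grey, points for libraries and bars for group means. The 2 DN3 floxed libraries of day 7 stand highest for Il2ra and Il2rb, and the ILC2 libraries stand highest for Il7r and Il9r; lung libraries come from a table scaled apart from the others.

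**Figure D2:**
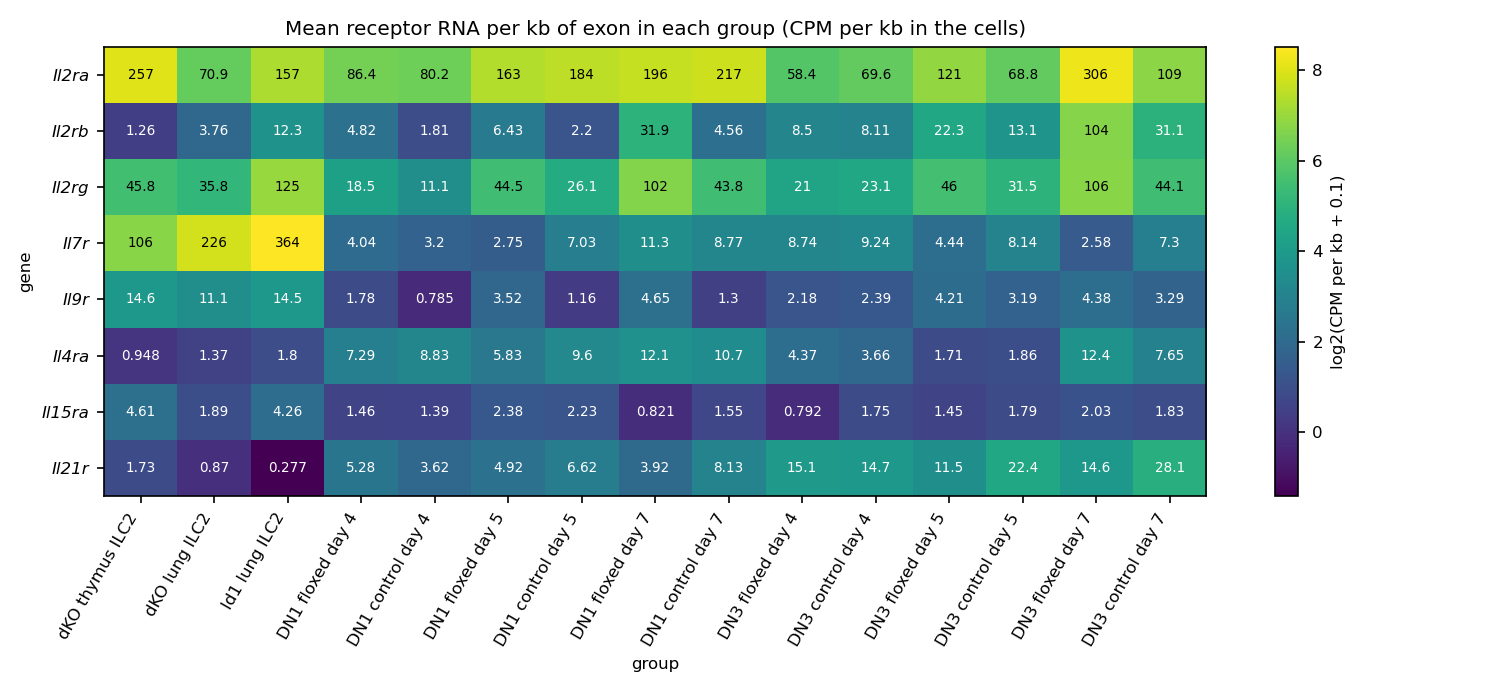
Mean CPM per kb of exon of each gene (rows) in each group (columns), printed in the cells and coloured on a log2 scale. Il2ra leads each culture group and thymic ILC2, and Il7r leads both lung ILC2 groups.

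Before tamoxifen acted, none of the 8 genes was called between floxed and control cultures in either precursor (0.105% of 15172 genes were called in DN1, 0.0593% higher and 0.0461% lower, and 0.442% in DN3, 0.191% higher and 0.250% lower). After it, 4 of 8 were called in DN1 on day 5 (3 higher and 1 lower in floxed), where 5.02% of all genes were called, 2.56% higher and 2.46% lower. On day 7 in DN1 4 of 8 were called (3 higher, 1 lower), where 22.5% of all genes were, 12.2% higher and 10.3% lower. In DN3 3 of 8 were called on day 5 (1 higher, 2 lower), where 9.76% of all genes were, 4.56% higher and 5.20% lower. Most were called in DN3 on day 7, with 6 of 8 (4 higher, 2 lower), where 24.9% of all genes were, 12.9% higher and 12% lower. Il2rb and Il2rg were each called higher in floxed cells in 3 of these comparisons, Il2ra and Il9r in 2 and Il4ra in 1, Il7r and Il21r were each called lower in 3, and Il15ra was not called. In bulk RNA, fewer cells of a type and less RNA per cell cannot be told apart.

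**Figure D3:**
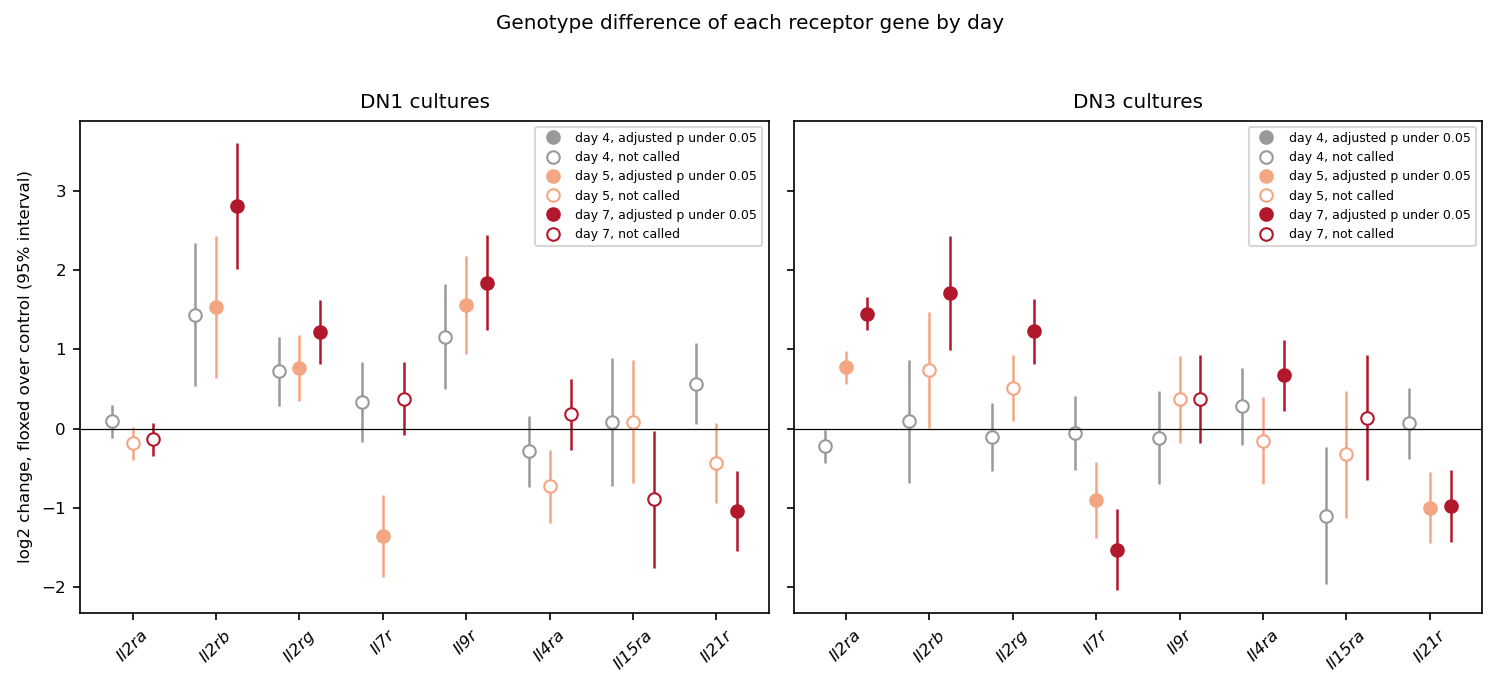
Log2 change of each receptor gene, floxed over control, on days 4, 5 and 7 in DN1 (left) and DN3 cultures (right), with 95% intervals and filled points for an adjusted p under 0.05. On day 7 Il2rb and Il2rg are above 0 and Il21r below 0 in both precursors, while Il2ra is raised in DN3 and Il7r lowered in DN3.

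Il2rg (ENSMUSG00000031304, chrX:101264378-101268255, minus strand) encodes the chain shared by the receptors of the 6 cytokines. On day 7 it was at 177 and 309 CPM in DN1 floxed libraries, against 102 and 107 CPM in DN1 control libraries. It was at 226 and 280.3 CPM in DN3 floxed libraries and 103 and 108 CPM in DN3 control libraries. Both floxed libraries lay above both controls in each precursor, and the floxed pair was further apart in DN1. The log2 change was 1.22 ± 0.19 (adjusted p = 0.000165) in DN1 and 1.23 ± 0.19 (adjusted p = 0.000108) in DN3. Without DN1 floxed b, the library with muscle RNA, the DN1 change was 0.77 (adjusted p = 0.00348), and with only the groups compared in the fit its adjusted p was 0.0565. On day 5 the values were 96.6 and 116 CPM in DN1 floxed and 64.6 and 59.8 CPM in DN1 control libraries, a log2 change of 0.76 ± 0.20 (adjusted p = 0.0306), and 113 and 107 CPM in DN3 floxed and 71.3 and 79.3 CPM in DN3 control libraries, a change of 0.51 ± 0.20 (adjusted p = 0.114) that was not called. Again the floxed libraries were all above their controls, and the DN1 call was lost without control c (adjusted p = 0.138), control d (0.227) or floxed b (0.275). On day 4 DN1 floxed libraries were at 49.3 and 39.1 CPM and DN1 control libraries at 30.4 and 22.6 CPM without overlap, though the gene was not called (0.72 ± 0.21, adjusted p = 0.405). The DN3 libraries of that day overlapped, at 45.3 and 55 CPM in floxed and 58.7 and 51.7 CPM in control. The change in the genotype difference between day 4 and day 7 was 1.33 ± 0.28 (adjusted p = 0.0037) in DN3 and 0.50 ± 0.28 (adjusted p = 0.311) in DN1. The DN1 change became a call without floxed a of day 7 (0.82 (adjusted p = 0.0129)), which leaves only the library with muscle RNA.

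Il2rb (ENSMUSG00000068227, chr15:78479256-78495271, minus strand), the signalling chain of the IL-2 and IL-15 receptors, showed the widest floxed-over-control ratio of the family on day 7. DN1 floxed libraries had 97.2 and 177 CPM, against 21.3 and 17.8 CPM in DN1 control libraries. DN3 floxed libraries had 467 and 429 CPM, against 157 and 109 CPM in DN3 control libraries. The groups did not overlap in either precursor, and DN3 control libraries overlapped DN1 floxed libraries. The log2 change was 2.81 ± 0.38 (adjusted p = 3.04e-05) in DN1, and 2.33 (adjusted p = 0.000259) without floxed b, and 1.71 ± 0.34 (adjusted p = 0.00102) in DN3. On day 5 it was 1.54 ± 0.43 (adjusted p = 0.0427) in DN1, from 21.3 and 33.8 CPM in floxed and 10.4 and 8.53 CPM in control libraries, and 0.74 ± 0.35 (adjusted p = 0.215) in DN3, from 81.2 and 110.0 CPM in floxed and 58.9 and 53.2 CPM in control libraries. All 4 floxed libraries of day 5 were above their controls, and the DN1 call, the only one, was lost without control c (adjusted p = 0.176), control d (0.289) or floxed b (0.383). On day 4 DN1 floxed a stood apart from b, with 32.7 and 8.68 CPM against 8.62 and 6.91 CPM in the DN1 controls, and the 4 DN3 libraries lay between 29.6 and 39.8 CPM. The day 4 to day 7 change of the difference was called in DN3 (1.62 ± 0.50 (adjusted p = 0.0407)) but not without 7 of its 8 libraries taken singly (highest adjusted p = 0.179, without control d of day 7), and was not called in DN1 (1.37 ± 0.57, adjusted p = 0.157). The DN3 call was also lost with DESeq2 (adjusted p = 0.0755) and with nuclear protein-coding totals (0.0523). The DN1 change became a call without floxed a of day 4 (2.67 (adjusted p = 0.00358)), without floxed a of day 7 (1.70 (adjusted p = 0.0318)) and without the low-count filter (1.32 (adjusted p = 2.90e-06)). The DN1 genotype difference of day 4 itself was called without floxed b (2.04 (adjusted p = 0.00727)), which leaves the high floxed a alone.

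Il2ra (ENSMUSG00000026770, chr2:11642807-11693193, plus strand) encodes CD25, the alpha chain that gives the IL-2 receptor its high affinity. DN3 floxed libraries had 1807 and 1691 CPM on day 7, against 653 and 593 CPM in DN3 control libraries, a log2 change of 1.45 ± 0.10 (adjusted p = 1.42e-08). They had 687 and 690.2 CPM on day 5, against 399 and 387 CPM, a change of 0.77 ± 0.10 (adjusted p = 5.95e-05). Neither day showed overlap, whereas on day 4 DN3 floxed libraries (369 and 297 CPM) were below the controls (411 and 384 CPM) without a call. The difference grew by 1.68 ± 0.14 (adjusted p = 2.89e-06) between days 4 and 7. DN1 cultures had 1063 and 1181 CPM in floxed and 1235 and 1242 CPM in control libraries on day 7, and the change of -0.14 ± 0.10 was not called (adjusted p = 0.347). The 2 precursors differed in this response: the DN1 change minus the DN3 change was -1.59 ± 0.14 (adjusted p = 2.39e-06). The annotated transcript Gm37881 lies within Il2ra on the same strand and took 1867 counts over the 24 cultures, so a small part of the signal may have been assigned to it.

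Markers of regulatory T cells, which carry CD25 and CD122 (Il2rb), were measured beside these genes. Foxp3, Ikzf2 and Ctla4 summed to 439 to 503 CPM in DN3 floxed and 312 to 358 CPM in DN3 control cells on day 7, and to 313 to 341 CPM in DN1 floxed and 211 to 233 CPM in DN1 control cells. Foxp3 itself was at 7.45 to 18.1 CPM in DN3 floxed and 0.399 to 0.675 CPM in DN3 control cells. The 11 ILC2 marker genes summed to 1854 to 2413 CPM in DN1 floxed and 343 to 387 CPM in DN1 control cells, and to 1333 to 1615 CPM in DN3 floxed and 355 to 446 CPM in DN3 control cells. Il1rl1, a defining ILC2 receptor, stayed at or under 1.1 CPM in all day 7 cultures. The 8 T cell markers summed to 30.6 to 32 CPM in DN1 floxed against 274 to 310 CPM in DN1 control cells, and to 375 to 459 CPM in DN3 floxed against 1034 to 1133 CPM in DN3 control cells. The part of any of these in the receptor results was not tested.

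Il15ra (ENSMUSG00000023206, chr2:11705290-11734317, plus strand), which presents IL-15, was low and not called in any genotype comparison. On day 7 it was at 4.99 and 2.31 CPM in DN1 floxed and 7.38 and 6.40 CPM in DN1 control libraries (-0.89 ± 0.41 (adjusted p = 0.131)), and at 5.42 and 12.6 CPM in DN3 floxed and 9.05 and 7.23 CPM in DN3 control libraries (0.14 ± 0.38 (adjusted p = 0.849)). The DN1 floxed libraries were below their controls, on 57 counts in all, and the DN3 groups overlapped. The DN1 difference was called without floxed a (-1.59 (adjusted p = 0.0241)) and without the low-count filter.

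Il7r (ENSMUSG00000003882, chr15:9505788-9530176, minus strand), the alpha chain of the IL-7 receptor and, with Crlf2, of the TSLP receptor, responded differently in the 2 precursors. DN3 floxed libraries had 10.3 and 13.7 CPM on day 7, against 33 and 35.1 CPM in DN3 control libraries. DN1 floxed libraries had 56.6 and 49.1 CPM, against 43.5 and 38.3 CPM in DN1 control libraries. The DN3 pairs were well apart, with floxed low, and in DN1 floxed was the higher pair. The log2 change was -1.53 ± 0.25 (adjusted p = 0.000123) in DN3, while that in DN1, 0.38 ± 0.22 (adjusted p = 0.228), was not called, and the DN1 change minus the DN3 change was 1.91 ± 0.33 (adjusted p = 0.00164). On day 5 Il7r was lower in floxed cells of both, at 14.2 and 11.5 CPM in DN1 floxed and 35.2 and 30.4 CPM in DN1 control libraries (-1.36 ± 0.24 (adjusted p = 0.00206)), and at 27.5 and 14 CPM in DN3 floxed and 36 and 39.9 CPM in DN3 control libraries (-0.91 ± 0.23 (adjusted p = 0.0163)). The DN1 call was lost without floxed b (-1.20 (adjusted p = 0.0674)), and the DN3 call without floxed b (-0.49 (adjusted p = 0.275)), control c (adjusted p = 0.058) or control d (0.109); without DN3 floxed a the change was -1.49. On day 4 DN3 floxed libraries (46.9 and 34.6 CPM) overlapped the controls (44.8 and 41.3 CPM), and the difference between genotypes changed by -1.48 ± 0.33 (adjusted p = 0.00594) from day 4 to day 7.

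Il9r (ENSMUSG00000020279, chr11:32187541-32200279, minus strand), the private chain of the IL-9 receptor, was higher in DN1 floxed cells. On day 7 DN1 floxed libraries had 23.5 and 22.5 CPM and DN1 control libraries 6.09 and 6.75 CPM, a log2 change of 1.84 ± 0.29 (adjusted p = 0.000121). On day 5 they had 12.4 and 22.4 CPM in floxed and 3.7 and 7.78 CPM in control, a change of 1.56 ± 0.30 (adjusted p = 0.00333) that missed the threshold when control c (adjusted p = 0.0877) or floxed b (0.118) was left out. Day 4 values of 9.46 and 8.13 CPM in floxed and 4.31 and 3.46 CPM in control already lay apart, without a call (1.16 ± 0.32, adjusted p = 0.341). On none of the 3 days did the DN1 genotypes overlap, and the change from day 4 to day 7 of 0.68 ± 0.43 was not called (adjusted p = 0.363). In DN3 the day 7 values were 22.4 and 21 CPM in floxed and 16.2 and 16.3 CPM in control libraries (0.37 ± 0.26 (adjusted p = 0.347)). The DN1 change exceeded the DN3 change by 1.47 ± 0.39 (adjusted p = 0.025), a call lost without any of 6 of the 8 libraries taken singly (highest adjusted p = 0.105, without DN1 control c). Mast cells can carry Il9r. The 6 mast cell genes summed to 263 to 299 CPM in DN1 floxed and 223 to 232 CPM in DN1 controls on day 7. On day 5 the sums were 296 to 335 CPM in DN1 floxed and 135 to 145 CPM in DN1 controls. Few of the 6 had any count: 3 in floxed and 2 in control cells on day 7, and 1 and 2 on day 5. The floxed sum of day 5 was thus 1 gene. The part of these genes was not tested.

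Il4ra (ENSMUSG00000030748, chr7:125552120-125579474, plus strand), which pairs with the common gamma chain or with Il13ra1, was at 77.1 and 72.3 CPM in DN3 floxed and 53.9 and 37.9 CPM in DN3 control libraries on day 7. Its log2 change of 0.67 ± 0.22 (adjusted p = 0.0276) was called, but not without floxed a (adjusted p = 0.119), floxed b (0.0871) or control d (0.44 (adjusted p = 0.313)). In DN1 the libraries of day 7 overlapped, at 56.3 and 88.4 CPM in floxed and 67.5 and 60.8 CPM in control. On day 5 DN1 floxed libraries (33.6 and 36.3 CPM) were below DN1 controls (54.4 and 60.8 CPM) without a call (-0.73 ± 0.22, adjusted p = 0.0629). It was called with DESeq2 (adjusted p = 0.0348), without the low-count filter (0.00186) and with only the compared groups in the fit (0.0124). The DN3 day 7 call was lost with nuclear protein-coding totals.

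Il21r (ENSMUSG00000030745, chr7:125603429-125633570, plus strand), the private chain for IL-21, fell in floxed cells of both precursors. DN1 floxed libraries had 15.5 and 10.6 CPM on day 7 and DN1 control libraries 27.5 and 26.5 CPM (-1.04 ± 0.24 (adjusted p = 0.00416)). DN3 floxed libraries had 47.8 and 49.4 CPM and DN3 control libraries 101 and 85.6 CPM (-0.98 ± 0.21 (adjusted p = 0.00212)). No floxed library reached its controls, and the 2 changes differed by -0.061 ± 0.32 (adjusted p = 0.954). The DN1 call was lost without floxed b (-0.79 (adjusted p = 0.074)) and with only the compared groups in the fit (0.0629). In DN3 the difference was present on day 5, with 42.6 and 33.7 CPM in floxed and 70.7 and 78.5 CPM in control libraries. Its log2 change was -1.0 ± 0.22 (adjusted p = 0.00559), a call lost without floxed b or control d. In DN1 the day 5 libraries were at 16.5 and 16.2 CPM in floxed and 21.3 and 22.7 CPM in control. That log2 change of -0.44 was not called. The genotype difference changed by -1.61 ± 0.34 (adjusted p = 0.0062) in DN1 and -1.05 ± 0.30 (adjusted p = 0.0299) in DN3 between days 4 and 7. The DN1 value was -0.95 (adjusted p = 0.0789) without floxed a of day 4, and the DN3 call was lost without 7 of the 8 libraries taken singly (highest adjusted p = 0.128).

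Counted over the family, the day 4 to day 7 change of the genotype difference was called for 1 of 8 genes in DN1 (lower; 7.78% of all genes, 4.17% higher and 3.61% lower). In DN3 it was called for 5 of 8 (3 higher, 2 lower; 12.3% of all genes, 6.02% higher and 6.28% lower). The DN1 and DN3 responses on day 7 differed for 3 of 8, with the difference lower in DN1 than in DN3 for Il2ra and higher for Il7r and Il9r, where 7.79% of all genes differed, 3.81% higher and 3.98% lower. Day 4 libraries were not sorted: their stromal sums were 4206 to 5043 CPM in DN1 floxed and 5566 to 5825 CPM in DN1 control cultures, and 1784 to 2017 CPM in DN3 floxed and 1201 to 1364 CPM in DN3 control cultures, and their part in these changes was not tested.

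The course from day 5 to day 7, both in sorted cells, was compared within each genotype. In DN3 floxed cells 5 of 8 genes were called (4 higher, 1 lower on day 7; 24.5% of all genes, 13.6% higher and 10.9% lower). In DN3 control cells 3 of 8 were, all higher (20.3% of all genes, 10.5% higher and 9.73% lower). Il4ra moved most, to 77.1 and 72.3 CPM on day 7 against 8.69 and 11.8 CPM on day 5 in floxed cells (2.84 ± 0.24 (adjusted p = 9.36e-08)) and to 53.9 and 37.9 CPM against 11.2 and 11.1 CPM in control cells (2.02 ± 0.24 (adjusted p = 1.42e-05)). Both genotypes were thus higher on day 7, with no overlap of days. Il2ra was higher on day 7 in DN3 floxed (1.33 ± 0.10 (adjusted p = 3.12e-08)) and control cells (0.65 ± 0.10 (adjusted p = 0.000148)), as was Il2rb (2.21 ± 0.35 (adjusted p = 0.000104) and 1.23 ± 0.35 (adjusted p = 0.0173)), the last of these not without control c of day 7 or c or d of day 5 (highest adjusted p = 0.17). Il2rg rose in DN3 floxed cells (1.18 ± 0.19 (adjusted p = 0.000143)) and was not called in controls (0.47 ± 0.20 (adjusted p = 0.101)). Il7r fell in DN3 floxed cells, with a log2 change of -0.80 ± 0.25 (adjusted p = 0.0255), a call that rested on floxed a of day 5, without which it was -0.22 (adjusted p = 0.622), and on floxed a of day 7 (adjusted p = 0.191).

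In DN1 floxed cells 5 of 8 genes were called between the same days (4 higher, 1 lower on day 7; 21.5% of all genes, 12% higher and 9.47% lower), against 1 of 8, higher, in DN1 control cells (13.1%, 6.45% higher and 6.65% lower). Il7r was at 56.6 and 49.1 CPM on day 7 against 14.2 and 11.5 CPM on day 5 in floxed cells (2.03 ± 0.24 (adjusted p = 1.72e-05)), so that its day 5 shortfall was gone. Il2rb (2.30 ± 0.37 (adjusted p = 0.000306)), Il2rg (1.18 ± 0.20 (adjusted p = 0.00036)) and Il4ra (1.03 ± 0.22 (adjusted p = 0.00269)) rose with it. Il15ra fell (-1.53 ± 0.41 (adjusted p = 0.012)). Without floxed b of day 7 the Il4ra change was 0.68 (adjusted p = 0.0603), that of Il15ra -1.08 (adjusted p = 0.141) and that of Il2rg 0.73 (adjusted p = 0.00756); without floxed b of day 5 the adjusted p of Il15ra was 0.0558. With only the compared groups in the fit none of these 3 was called, at adjusted p of 0.0915 for Il2rg, 0.0953 for Il4ra and 0.138 for Il15ra. The single call in DN1 controls was Il2rg (0.72 ± 0.20 (adjusted p = 0.0211)), and it was lost without any 1 of the 4 libraries (highest adjusted p = 0.154).

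Between the control precursors, DN1 and DN3 cells differed in 7 of 8 receptor genes on day 4 (2 higher and 5 lower in DN1; 39.7% of all genes, 24.8% higher and 14.9% lower) and in 4 of 8 on day 7 (1 higher, 3 lower; 22.6%, 11.4% higher and 11.2% lower). Il2ra RNA was higher in DN1 than in DN3 controls on day 7, at 1235 and 1242 CPM in DN1 and 653 and 593 CPM in DN3 libraries (0.95 ± 0.10 (adjusted p = 1.36e-06)). On day 4 it was at 438 and 478 CPM in DN1 and 411 and 384 CPM in DN3 (0.35 ± 0.10 (adjusted p = 0.00926)), a call lost without replicate d of either precursor (adjusted p = 0.0972 for DN1 and 0.0914 for DN3). These are cultured descendants, so CD25 of the starting cells is not what was measured. Il2rb (-2.81 ± 0.38 (adjusted p = 2.19e-05)), Il9r (-1.38 ± 0.29 (adjusted p = 0.00151)) and Il21r (-1.83 ± 0.22 (adjusted p = 5.84e-06)) were lower in DN1 controls on day 7. On day 4 Il2rb (-2.01 ± 0.42 (adjusted p = 0.000905)), Il9r (-1.46 ± 0.31 (adjusted p = 0.00108)), Il21r (-1.88 ± 0.24 (adjusted p = 4.88e-06)), Il7r (-1.38 ± 0.24 (adjusted p = 0.00012)) and Il2rg (-0.91 ± 0.21 (adjusted p = 0.00202)) were lower, while Il4ra was higher (1.41 ± 0.23 (adjusted p = 6.68e-05)), at 51.5 and 54.5 CPM in DN1 and 19.3 and 24.7 CPM in DN3 control libraries.

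ILC2 taken directly from dKO thymus were set against the floxed cultures of day 7, which share the floxed alleles but not the route or the medium. Sex differed too: Xist was at 0.315 to 0.321 CPM in thymic ILC2 and 1301 to 1886 CPM in the day 7 floxed cultures, while the sum over 4 genes of the Y chromosome lay between 542 and 549.6 CPM in thymic ILC2 and between 0.508 and 2.58 CPM in those cultures, so sex and cell source cannot be told apart, for X-linked Il2rg among others. All 8 receptor genes were called against DN1 floxed cells (4 higher and 4 lower in ILC2), where 73.7% of all genes were called (33.6% higher, 40.1% lower), and all 8 against DN3 floxed cells (3 higher, 5 lower), where 71.8% were (33.0% higher, 38.8% lower). Of the genes that define ILC2, Il1rl1 was at 263 to 585 CPM, Gata3 at 142 to 221 CPM and Rora at 276 to 420 CPM, while Il5 and Il13 were at or under 0.321 CPM. All 11 ILC2 markers summed to 922 to 1618 CPM in thymic ILC2, 1854 to 2413 CPM in DN1 floxed and 1333 to 1615 CPM in DN3 floxed cells. The 8 T cell markers summed to 355 to 460.3 CPM in thymic ILC2, 30.6 to 32 CPM in DN1 floxed and 375 to 459 CPM in DN3 floxed cells, and their part was not tested. Il7r was at 411 and 581 CPM in thymic ILC2, against 56.6 and 49.1 CPM in DN1 floxed (3.23 ± 0.23 (adjusted p = 3.32e-11)) and 10.3 and 13.7 CPM in DN3 floxed libraries (5.36 ± 0.27 (adjusted p = 5.79e-14)). Il9r was at 44.6 and 99.4 CPM in thymic ILC2, against 23.5 and 22.5 CPM in DN1 floxed (1.65 ± 0.31 (adjusted p = 7.17e-05)) and 22.4 and 21 CPM in DN3 floxed libraries (1.74 ± 0.32 (adjusted p = 4.78e-05)). Both private chains of ILC2 cytokines were thus higher in ILC2 than in any culture library of day 7.

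Il2rb was at 2.25 and 8.52 CPM in thymic ILC2 (34 counts in all), against 97.2 and 177 CPM in DN1 floxed (-4.65 ± 0.52 (adjusted p = 5.18e-08)) and 467 and 429 CPM in DN3 floxed libraries (-6.36 ± 0.52 (adjusted p = 3.45e-10)). Il4ra was at 1.28 and 10.1 CPM (36 counts), with log2 changes of -3.65 ± 0.40 against DN1 and -3.70 ± 0.40 against DN3 floxed cells. Il21r was at 9.31 and 2.21 CPM (36 counts), -1.18 ± 0.40 (adjusted p = 0.0109) against DN1 and -3.07 ± 0.37 (adjusted p = 1.44e-07) against DN3. Counts this low leave the size of these differences loosely set. For Il21r the higher ILC2 library (9.31 CPM) came near DN1 floxed b of day 7 (10.6 CPM). Il2rg was at 98.2 and 121 CPM in thymic ILC2 and lower than in both cultures (-1.15 ± 0.20 against DN1 and -1.21 ± 0.20 against DN3), and Il15ra was higher (2.48 ± 0.41 and 1.17 ± 0.38). Il2ra was at 1484 and 1453 CPM, and its direction turned with the scaling: against DN1 it was 0.39 ± 0.11, and -0.35 with library totals, and against DN3 it was -0.25 ± 0.11, and 0.082 with RLE factors. Without ILC2 library 3 the Il9r change was 0.97 against DN1 and 1.05 against DN3, the Il4ra change -5.78 and -5.84, and the calls of Il21r against DN1 (adjusted p = 0.286) and Il15ra against DN3 (0.0853) were lost. The Il21r call was also lost without DN1 floxed a (adjusted p = 0.0656), with RLE factors (0.052), with nuclear protein-coding totals (0.0883) and with only the compared groups (0.214). The Il15ra call was also lost without DN3 floxed a (adjusted p = 0.18) and with library totals (0.298).

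These libraries differ from the cultures in more than identity. Mitochondrial genes took 56.3% to 62% of their counts, against 2.02% to 3.55% in cultures, and the median log2 change over all tested genes was -0.26 against DN1 and -0.20 against DN3 floxed cells. The change also ran with GC content: over 12671 protein-coding genes its median against DN1 floxed cells was 1.26 in the lowest of 10 GC bins (31% to 41.2% GC) and -2.38 in the highest bin (57.7% to 72.8%), and against DN3 floxed cells 1.16 and -2.28. Among the receptor genes GC ran from 40.5% in Il7r and 44.4% in Il2ra to 53.9% in Il2rb, 54.8% in Il21r and 55.8% in Il4ra. Relative to the median of its own GC bin, Il7r stood at 1.97 against DN1 and 4.20 against DN3, Il9r at 2.09 and 2.08, and Il2rb at -3.44 and -5.20. By the same measure Il4ra stood at -1.94 and -1.97, Il2rg at -1.11 and -1.21, Il15ra at 2.52 and 1.17, Il21r at 0.035 and -1.92, and Il2ra at -0.00013 and -0.73. Il7r, Il9r and Il15ra were above and Il2rb, Il4ra and Il2rg below the median of their GC bin in both comparisons. The spread of genes within a bin was not taken into account, and the part of GC in the results was not tested.

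In lung, dKO ILC2 were compared with Id1 ILC2, the first with floxed E2A and HEB alleles and plck-Cre, the second with the E protein inhibitor. Il2rg and Il2rb, the signalling chains of the IL-2 and IL-15 receptors, were called lower in dKO cells, 2 of 8 genes, where 18.1% of all genes were called, 14.4% higher and 3.66% lower. Il2rg was at 111 and 59.8 CPM in dKO libraries, against 245, 391 and 260.3 CPM in Id1 libraries (-1.78 ± 0.40 (adjusted p = 0.0271)). Il2rb was at 17.6 and 14.6 CPM in dKO libraries, against 59.8, 63 and 35.5 CPM in Id1 libraries (-1.68 ± 0.43 (adjusted p = 0.0285)). Neither gene overlapped between the groups. Il2ra was also lower without overlap and not called, at 599.6 and 210.0 CPM in dKO and 992, 885 and 820.5 CPM in Id1 libraries (-1.13 ± 0.46 (adjusted p = 0.114)), and became called without dKO library 1 (-2.07 (adjusted p = 0.0155)). Il7r was at 1346 and 758 CPM in dKO and 1785, 1510.2 and 1799 CPM in Id1 libraries (-0.67 ± 0.40 (adjusted p = 0.28)), and Il9r at 71.3 and 38.4 CPM in dKO and 65.1, 80.7 and 69.8 CPM in Id1 libraries (-0.36 ± 0.37 (adjusted p = 0.54)). Il15ra was at 12.6 and 4.23 CPM in dKO and 21.6, 12.7 and 22.5 CPM in Id1 libraries. Il4ra was at 5.06 and 11.4 CPM in dKO and 10.8, 9.22 and 12.4 CPM in Id1 libraries, and Il21r at 3.83 and 1.95 CPM in dKO and 0.491, 1.67 and 0.603 CPM in Id1 libraries. The groups overlapped for Il4ra and not for Il15ra or Il21r, and none of the 3 was called.

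In both lung groups Il7r led per kb. The 11 ILC2 marker genes summed to 2205 to 3815 CPM in dKO and 4444 to 5229 CPM in Id1 libraries, without overlap. Markers of other cells went both ways. The 3 regulatory T cell genes were lower in dKO libraries, at 184 to 292.3 CPM in sum against 292.4 to 420 CPM in Id1. So were the 6 mast cell genes, at 17.6 to 19.9 CPM against 23 to 39.7 CPM. The T cell sums (49.1 to 275 and 165 to 263 CPM) and the myeloid sums (25.7 to 46.6 and 7.16 to 47 CPM) overlapped. Genes of NK cells, B cells, stroma, muscle and lung tissue stood higher in dKO libraries. The 6 NK cell genes summed to 20.5 to 67.3 CPM in dKO and 1.13 to 7.30 CPM in Id1 libraries, and the 5 B cell genes to 18.5 to 34.5 CPM in dKO and 0.702 to 5.25 CPM in Id1 libraries. The 10 stromal genes summed to 53.5 to 113 CPM in dKO and 3.30 to 17.8 CPM in Id1 libraries, and the 8 muscle genes to 68.5 to 162 CPM in dKO and 15.2 to 22.2 CPM in Id1 libraries. Their part in the Il2rg and Il2rb differences was not tested. The lung calls were fragile. Without dKO library 3, the one with many satellite-like counts, Il2rg was -1.41 (adjusted p = 0.105) and Il2rb -1.56 (adjusted p = 0.123), when 183 genes were called in all, against 3499 with it. Il2rb was also lost without Id1 library 1 (adjusted p = 0.103) or 2 (0.0554). The median log2 change over all tested genes was 0.16, and it was 1.04 in the lowest of the 10 GC bins. Relative to the median of its own GC bin, Il2rg stood at -1.72 and Il2rb at -1.52.

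Of the 31 genes listed for the pathway's ligands, other receptor chains, kinases, STATs, inhibitors and adaptors, 28 were tested in the cultures. In DN3 floxed cells 14 were higher and 2 lower than in controls on day 7, where 12.9% of all genes were higher and 12% lower, and 6 were higher and none lower on day 5, where 4.56% and 5.20% were. In DN1 floxed cells 7 were higher and 4 lower on day 7, beside 12.2% and 10.3% of all genes, and 2 higher and 2 lower on day 5, beside 2.56% and 2.46%. Of the 16 DN3 calls of day 7, 12 held without any single library, and of the 11 DN1 calls 2 held, Jak2 and Pik3cd.

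Among kinases, Jak1 (private-chain partner) was at 343 and 365 CPM in DN3 floxed and 208 and 211 CPM in DN3 control libraries on day 7 (0.72 ± 0.085 (adjusted p = 4.98e-06)), and was not called in DN1 (-0.10 ± 0.084 (adjusted p = 0.415)). Jak3, the common gamma chain kinase, was at 7.82 and 12.2 CPM in DN3 floxed and 5.72 and 6.46 CPM in DN3 control libraries (0.67 ± 0.34 (adjusted p = 0.174)), and its count is uncertain because Insl3 overlaps it on the same strand. Jak2, which serves other cytokine receptors, rose in both DN1 (1.19 ± 0.15 (adjusted p = 1.12e-05)) and DN3 floxed cells (1.45 ± 0.15 (adjusted p = 1.10e-06)), and Tyk2 rose in DN3 (1.0 ± 0.14 (adjusted p = 3.79e-05)). Stat5a fell in both, to 89.1 and 107 CPM in DN3 floxed against 155 and 158 CPM in control libraries (-0.72 ± 0.12 (adjusted p = 0.000225)), and with a change of -0.44 ± 0.12 (adjusted p = 0.0136) in DN1, lost without DN1 control d. Stat5b fell in DN3 (-0.56 ± 0.13 (adjusted p = 0.00282)), lost without floxed b, and in DN1 (-0.38 ± 0.13 (adjusted p = 0.0378)), lost without floxed b or control d. Stat6, the IL-4 effector, rose in DN3 (0.79 ± 0.17 (adjusted p = 0.00149)) and in DN1 (0.49 ± 0.17 (adjusted p = 0.0412)), the last lost without 3 of 4 libraries.

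Of the STAT5-induced inhibitors, Cish was at 349 and 430.4 CPM in DN3 floxed and 95.7 and 114 CPM in DN3 control libraries on day 7 (1.86 ± 0.22 (adjusted p = 5.71e-06)). In DN1 it was at 76.2 and 152 CPM in floxed and 95.1 and 97.8 CPM in control libraries (0.25 ± 0.22 (adjusted p = 0.455)), and the 2 responses differed (-1.61 ± 0.31 (adjusted p = 0.0035)). On day 5 Cish was lower in DN1 floxed cells (-1.01 ± 0.23 (adjusted p = 0.0138)), a call lost without any 1 of the 4 libraries. Socs1 rose on day 7 in DN3 (0.89 ± 0.17 (adjusted p = 0.000699)) and DN1 (0.63 ± 0.17 (adjusted p = 0.0144)), the DN1 call lost without floxed a or control d. Socs2 rose in DN3 (0.66 ± 0.17 (adjusted p = 0.00801)) and fell in DN1 (-0.70 ± 0.17 (adjusted p = 0.00637)), and the responses differed (-1.36 ± 0.24 (adjusted p = 0.00218)). Crlf2, the TSLP receptor chain that pairs with Il7r, was at 48.6 and 59.2 CPM in DN3 floxed and 31.2 and 36.7 CPM in DN3 control libraries (0.63 ± 0.19 (adjusted p = 0.0216)), lost without floxed b or control d. Among adaptors Gab2 (1.58 ± 0.25 (adjusted p = 0.000116)) and Pik3cd, a PI3 kinase subunit (0.84 ± 0.12 (adjusted p = 4.69e-05)), rose in DN3. Adaptor calls were not limited to DN3. On day 7 in DN1 3 of 7 were higher and 1 lower, beside 12.2% and 10.3% of all genes, and Pik3cd was among these. Of 4 ligands tested, 1 was called higher in DN1 on day 7, beside 12.2% of all genes. In DN3 2 were, beside 12.9%, and no ligand was called for a difference between the DN1 and DN3 responses. Of the ligands, Il4 was at 6.27 and 11.5 CPM in DN3 floxed and 0.482 and 0.666 CPM in DN3 control libraries (3.91 ± 0.63 (adjusted p = 0.000282)) and Il2 at 19.1 and 21.7 CPM in DN3 floxed and 12.3 and 13.8 CPM in DN3 control libraries (0.61 ± 0.18 (adjusted p = 0.0199)), the second lost without 3 of the 4 libraries.

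**Figure D4:**
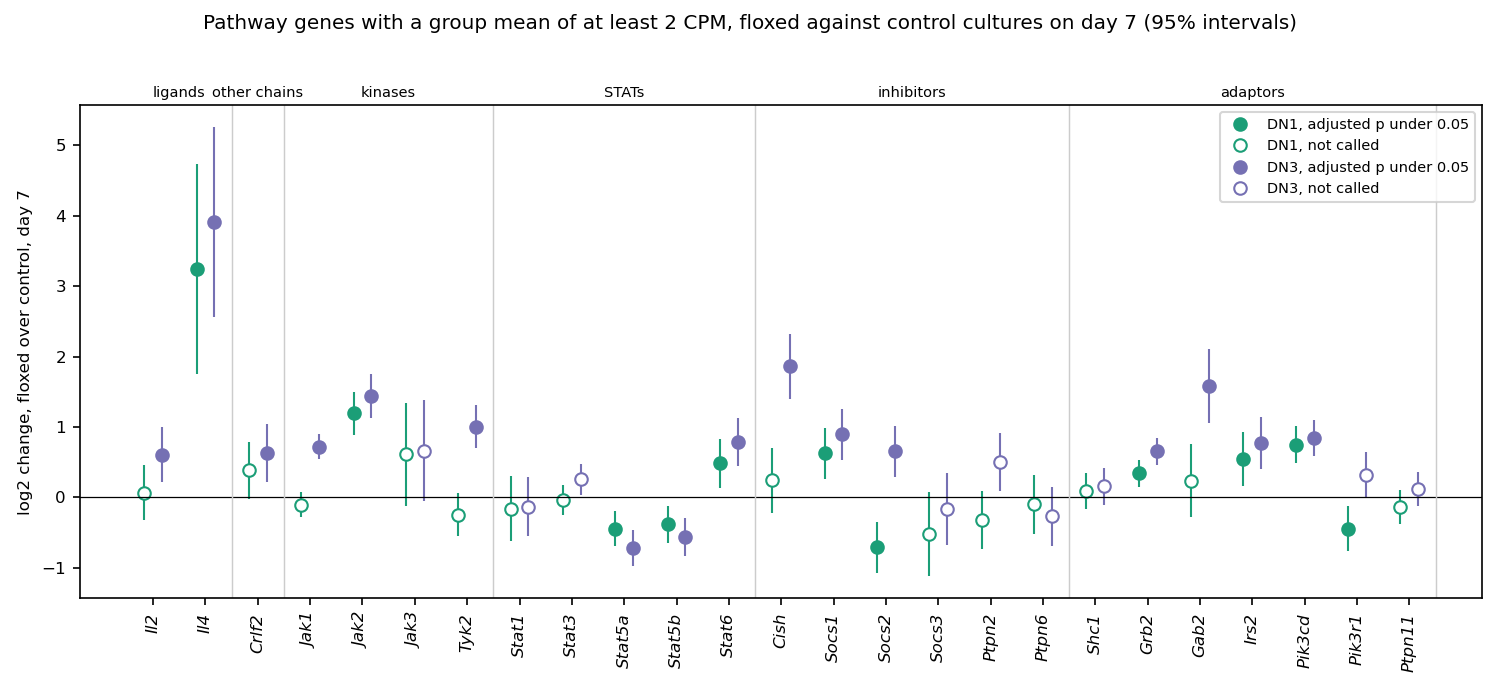
Log2 change, floxed over control on day 7, of listed pathway genes with a group mean of at least 2 CPM in DN1 (green) and DN3 cultures (purple), with 95% intervals, grouped by role and filled where the adjusted p was under 0.05. The points of Cish, Gab2, Jak1 and Tyk2 lie higher in DN3 than in DN1, and Stat5a and Stat5b are below 0 in both.

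Thymic ILC2 had 5 pathway genes higher and 17 lower than DN1 floxed cells (33.6% of all genes were higher and 40.1% lower) and 4 higher and 17 lower than DN3 floxed cells (33.0% and 38.8%), of 28 tested. The totals lie near the 73.7% and 71.8% of all genes called. Cish was at 19.3 and 26.5 CPM and Stat5a at 23.3 and 29.2 CPM there, and the GC gradient above runs through these values too. In lung, 3 of 27 tested were called, where 18.1% of all genes were, and all were lower in dKO cells, where 3.66% of all genes were: Irs2 (-1.76 ± 0.44 (adjusted p = 0.0283)), Stat3 (-1.49 ± 0.35 (adjusted p = 0.0283)) and Cish (-1.41 ± 0.39 (adjusted p = 0.0338)). Each of these calls was lost without at least 1 library.

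Within the family, Il9r and Il2rb (Pearson r = 0.837) and Il2rg and Il2rb (0.807) varied most alike over the 24 culture libraries, and Il21r and Il4ra least (-0.440). Among 6199 expressed genes the closest to Il2rb were Pfkp (0.947), Pkp3 (0.941) and Clcn3 (0.940), and the closest to Il2rg were Fmnl1 (0.965), Arhgap15 (0.960) and Slc9a9 (0.958). Il2ra ran with Mob3a (0.967), Lcp1 (0.966) and Pde7a (0.957), Il21r with Cd3e (0.947), Sit1 (0.945) and Cd3d (0.940), and Il9r with Slc15a1 (0.915), Sh2d1a (0.902) and Camk4 (0.859). Il4ra ran with Ccnd2 (0.940), Ifitm3 (0.921) and Cdc37l1 (0.910). Il7r and Il15ra had no close companion, with highest values of 0.715 (AU020206) and 0.759 (Tshz1). The libraries share genotype, day and sort, so these values describe the design as much as the genes.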

How the data were processed

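Per the labels, Trizol was used on cells to obtain total RNA, and library preparation was standard Illumina. The authors deposited raw counts for Ensembl genes in 2 tables, one with 26 libraries (cultures and thymic ILC2) and one with 5 (lung ILC2). The submitters' processing notes name mm10 and DESeq2. The aligner, counter and annotation release were not given in the sources used here. Names and mm10 positions came from GENCODE M21, which held 48664 of the 48881 IDs. Groups and replicates followed the titles. For 4-OHT, DN1 day 7 labels say day 7 and the series design says day 4, which was followed.

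Counts were tested with edgeR 4.0.16 (R 4.3.3): TMM scaling, filterByExpr (minimum count 10), 1 mean per group, quasi-likelihood F tests and Benjamini-Hochberg adjustment over all tested genes at 0.05. The fits were 24 culture libraries (15172 genes, 12 residual degrees of freedom), all 26 of the thymus table (16391 genes, 13) and 5 lung libraries (19371 genes, 3). The tables were scaled separately, so no test crosses them. Standard errors are log2 changes divided by the square root of F. Scripts were tested on simulated data.

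The 8 genes, the 31 pathway genes and the marker lists were chosen with earlier results of these data known. Named pathway genes are Jak1, Jak3, Stat5a, Stat5b, Stat6, Crlf2, Cish and Socs1, plus up to 4 called each way by size. Genes like a member had a mean of at least 20 CPM, and likeness was Pearson r of log2(CPM + 1). Alternatives were DESeq2 1.42.0, RLE factors, no low-count filter, only the compared groups, a replicate block, each library left out and, chosen after seeing the data, library totals and nuclear protein-coding totals. The GC comparison used the longest M21 transcript and was also chosen after seeing the data. At 5908460 counts, the smallest culture total, 1 CPM is about 6 reads. Intervals cover the spread between libraries.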

Additional observations from a re-analysis of the deposited data

Results flagged for a closer look

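A genotype difference in the cultures that was itself different on another day or in the other precursor was singled out for a second look. Between days 4 and 7 the log2 difference, floxed over control, changed in DN3 cultures by 1.68 for Il2ra, 1.62 for Il2rb and 1.33 for Il2rg, and by -1.48 for Il7r and -1.05 for Il21r. In DN1 cultures it changed by -1.61 for Il21r. On day 7 the DN1 difference minus the DN3 difference was -1.59 for Il2ra, 1.91 for Il7r and 1.47 for Il9r. All 9 were tested as interaction terms of the edgeR fit, and they were picked because they were called. Of all genes, 12.3% were called for the DN3 change, 7.78% for the DN1 change and 7.79% for DN1 minus DN3. Day 4 libraries were not sorted and held stromal RNA, so the first 6 compare unsorted with sorted cells, and the part of the sort was not tested. The last 3 compare sorted cells of 1 day, where DN1 floxed b is the library with muscle RNA. Without it the Il2ra value was -1.65, the Il7r value 2.02 and the Il9r value 1.51. The Il9r call was lost without most of the other libraries taken singly, as were the DN3 calls of Il2rb and Il21r between days. The DN1 call of Il21r was lost without floxed a of day 4.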

How the results depend on the processing

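Of 144 member results 69 were called; 43 of these calls held under every alternative, 45 without any single library, and 2 changed sign, both for Il2ra in thymic ILC2. The shares of all genes called in the main fits are given above, and calls over all genes moved with the setting too. The number of the 8 genes called moved as follows. Without the low-count filter it was 3 for DN1 floxed against control on day 4, beside 229 of 29760 genes called. For DN3 on day 5 it was 5, beside 1650 of 29760 (Il2rb and Il2rg joined, as they did with only the compared groups). It was 2 for the DN1 change from day 4 to day 7, beside 1882 of 29760. For DN1 controls on day 7 against day 5 it was 2. With only the compared groups fitted it was 2 for DN1 on day 7, beside 798 of 12854 genes called. It was 0 for the DN1 change, beside 421 of 14472. It was 2 for DN1 floxed day 7 against day 5 (Il2rb and Il7r), beside 133 genes, and 3 for DN1 controls, beside 4261. The DN3 Il7r calls of day 5 and between days were also lost. With nuclear protein-coding totals the number was 2 for DN1 controls and 0 in lung, and with library totals 0 in lung. Lung calls over all genes were 2687 with nuclear protein-coding totals, against 3499 in the main fit. Leaving out 1 library at a time gave 0 to 1 on DN1 day 4, 0 to 4 on DN1 day 5, 1 to 3 on DN3 day 5, 1 to 3 for the DN1 change, 3 to 4 for the DN3 change, 3 to 6 for DN1 floxed day 7 against day 5, 0 to 0 for DN1 controls and 0 to 3 in lung. Signs of uncalled values turned: with the replicate block, DN3 day 4 Il2rb was -0.039, Il7r 0.082 and Il9r 0.059; the DN1 change of Il7r was -0.0089 with library totals and -0.028 with nuclear totals; DN1 minus DN3 Il2rg was 0.010 with only the compared groups and 0.0094 with nuclear totals; DN3 floxed day 7 against day 5 Il9r was -0.045 with library totals and -0.020 with nuclear totals; DN3 control Il15ra was -0.011 with only the compared groups; and DN1 against DN3 control day 7 Il2rg was 0.00088 without the filter. Thymic ILC2 Il2ra was -0.35 against DN1 with library totals, and against DN3 0.082 with DESeq2, 0.082 with RLE factors and 0.19 with nuclear totals. Leaving out a library turned 23 results, none of them called, over these ranges: DN1 day 4 Il15ra -0.41 to 0.39 and Il21r -0.097 to 0.97; DN1 day 7 Il4ra -0.17 to 0.45; DN3 day 4 Il2rb -0.11 to 0.31, Il2rg -0.24 to 0.019, Il7r -0.29 to 0.17, Il9r -0.32 to 0.088, Il4ra -0.090 to 0.58 and Il21r -0.037 to 0.17; DN3 day 5 Il4ra -0.38 to 0.043 and Il15ra -0.73 to 0.23; DN3 day 7 Il15ra -0.62 to 0.60; the DN1 change of Il7r -0.091 to 0.23; DN1 minus DN3 Il2rg -0.45 to 0.33 and Il21r -0.38 to 0.20; DN1 control days Il9r -0.30 to 0.77; DN3 floxed days Il9r -0.18 to 0.27 and Il15ra -0.28 to 0.94; DN3 control days Il9r -0.15 to 0.18 and Il15ra -0.42 to 0.57; DN1 against DN3 control day 4 Il15ra -0.39 to 0.037; and lung Il9r -0.87 to 0.012 and Il4ra -1.07 to 0.11. The cause was not tested. Replicate letters pair no samples that the labels tie together: same-letter deviations between days had r of -0.055, -0.008, 0.187 and -0.081, so the replicate block is given here only. It ended the DN1 day 5 calls of Il2rb (1.42) and Il2rg (0.63), the DN3 day 7 call of Il4ra (0.55) and the lung call of Il2rb (-1.50), leaving 1 call in lung, and made Il4ra a call on DN1 day 5 (-0.85). Among all genes, calls fell to 798 on DN1 day 7 with only the compared groups, against 3412, to 133 for DN1 floxed day 7 against day 5, against 3256, and to 183 in lung without dKO library 3, against 3499. Without DN1 floxed a of day 7 they rose to 5803 on DN1 day 7, to 3748 for the DN1 change, against 1180, to 3150 for DN1 minus DN3, against 1182, and to 5458 for DN1 floxed day 7 against day 5; lung calls reached 5774 without dKO library 1. In thymic ILC2 the split of all calls against DN1 was 5506 higher and 6573 lower, and 3942 and 8349 with library totals.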

Other observations

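RNA of the cytokines themselves was measured beside their receptors. Il2 was present at 10.2 to 21.7 CPM in every culture library. It had no counts in thymic ILC2, was at 1.95 and 5.37 CPM in the 2 dKO lung libraries and ranged from 4.45 to 9.35 CPM in Id1 lung libraries. Il4 was at 12.8 and 20.2 CPM in thymic ILC2, 2.28 and 9.66 CPM in dKO lung and between 5.97 and 13.3 CPM in Id1 lung. Il15 was at 9.75 and 23.8 CPM in dKO lung, between 5.25 and 16.8 CPM in Id1 lung and at 1.89 and 2.57 CPM in thymic ILC2, and at or under 2.32 CPM in every culture library. Il7 was at 0.767 and 20.5 CPM in the dKO lung libraries, which lie far apart, and at or under 2.18 CPM in every culture library. Il9 and Il21 did not pass the low-count filter in the cultures.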
